A study of Mus musculus with 16 samples.

Results

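The nuclear genes of oxidative phosphorylation were described at their promoters. The group holds every protein-coding nuclear gene of the GENCODE annotation of GRCm38 whose symbol starts with Nduf, Uqcr, Cox4, Cox5, Cox6, Cox7, Cox8 or Atp5, together with Sdha, Sdhb, Sdhc and Sdhd. This rule gave 93 genes of 21728 protein-coding genes, with 413 transcription start sites. By complex they were 44 genes of complex I, 4 of complex II, 8 of complex III, 20 of complex IV and 17 of the ATP synthase. The measured values played no part in the rule. A gene counted as detected if a peak of the library's list overlapped its promoter window, which runs from 1000 bp before a start site to 100 bp after it, at any of its starts.

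Oxidative phosphorylation is the last stage of respiration. Complexes I and II pass electrons from NADH and succinate to ubiquinone, complex III passes them on to cytochrome c, and complex IV reduces oxygen. Complexes I, III and IV pump protons across the inner mitochondrial membrane, and the ATP synthase uses the returning protons to make ATP. Apart from a few subunits encoded by mitochondrial DNA, all subunits are encoded in the nucleus, where NRF1, the ETS factor GABP (NRF2), YY1 and the estrogen-related receptors are known regulators of their promoters. Resting B cells increase mitochondrial mass and respiration when they are activated.

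The data were ATAC-seq libraries, which count DNA fragments cut by a transposase in open chromatin, from splenic B cells of C57BL/6 mice. B cells were isolated with CD43 microbeads and activated in culture. LPS was given at 10 µg/mL and IL-4 at 20 ng/mL. The sample labels give 72 hours of culture, whereas the series text gives 96 hours. Each library was made from 50000 cells. All mice carried the CD23Cre transgene, which is active in mature B cells. In 4 libraries 1 allele of Smarca4, the gene of the remodeling ATPase Brg1, was floxed (Brg1fl/+), and in 4 libraries both alleles were (Brg1fl/fl), so the controls also lacked a functional allele wherever Cre had acted. Ages, and whether libraries came from separate mice, are not stated in the labels, so the p-values measure only the spread between these libraries. Peak lists do not show the deletion itself, which was not checked here.

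The peak lists held between 6271 and 14614 peaks, and their depth, read as the fragments expected per kb of background, lay between 2.76 in Brg1fl/+ replicate 3 and 6.89 in Brg1fl/fl replicate 1. At the summits of the 4126 promoter regions with a peak in every library, libraries of the same genotype differed by 0.759 to 1.18 times the variance of counting alone, and libraries of different genotypes by 0.995 to 1.79 times. Replicates thus differed by no more than about sampling noise. They held different peaks and are numbered as separate replicates in the labels, so each was counted as 1 sample. The names of the deposited lists also group libraries 1 with 2 and 3 with 4 of each genotype. If these are repeat runs of 1 culture, the n of 4 holds 2 independent samples and the SDs, standard errors and p-values are too small, so values with libraries 1 and 2 and libraries 3 and 4 joined are given in the closing section. Of 7 B cell markers measured, 4 had a promoter peak and 3 had none, among them Cd79b and Blk. Of 6 T cell markers, 1 had a peak, in Brg1fl/+ replicate 1, and none of 5 myeloid, 3 NK cell and 3 erythroid markers had any.

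Most of these promoters were open in activated B cells. A promoter peak was found in at least 1 library for 83 of the 93 genes (89.2%), compared with 48.1% of all protein-coding genes. In all 8 libraries a peak was found for 35 genes (37.6%), compared with 22.2% of all protein-coding genes. Among genes with any peak these shares were 42.2% and 46.1%. The genes were thus detected more often than protein-coding genes as a whole, while the share of the detected ones found in every library was no higher. Of other housekeeping genes, 82 of 92 cytosolic ribosomal protein genes were detected (89.1%), 55 of them in every library (59.8%), and 38 of 40 proteasome genes (95.0%), 17 of them in every library (42.5%). The 10 undetected ribosomal entries included pseudogene-like copies.

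**Figure D1:**
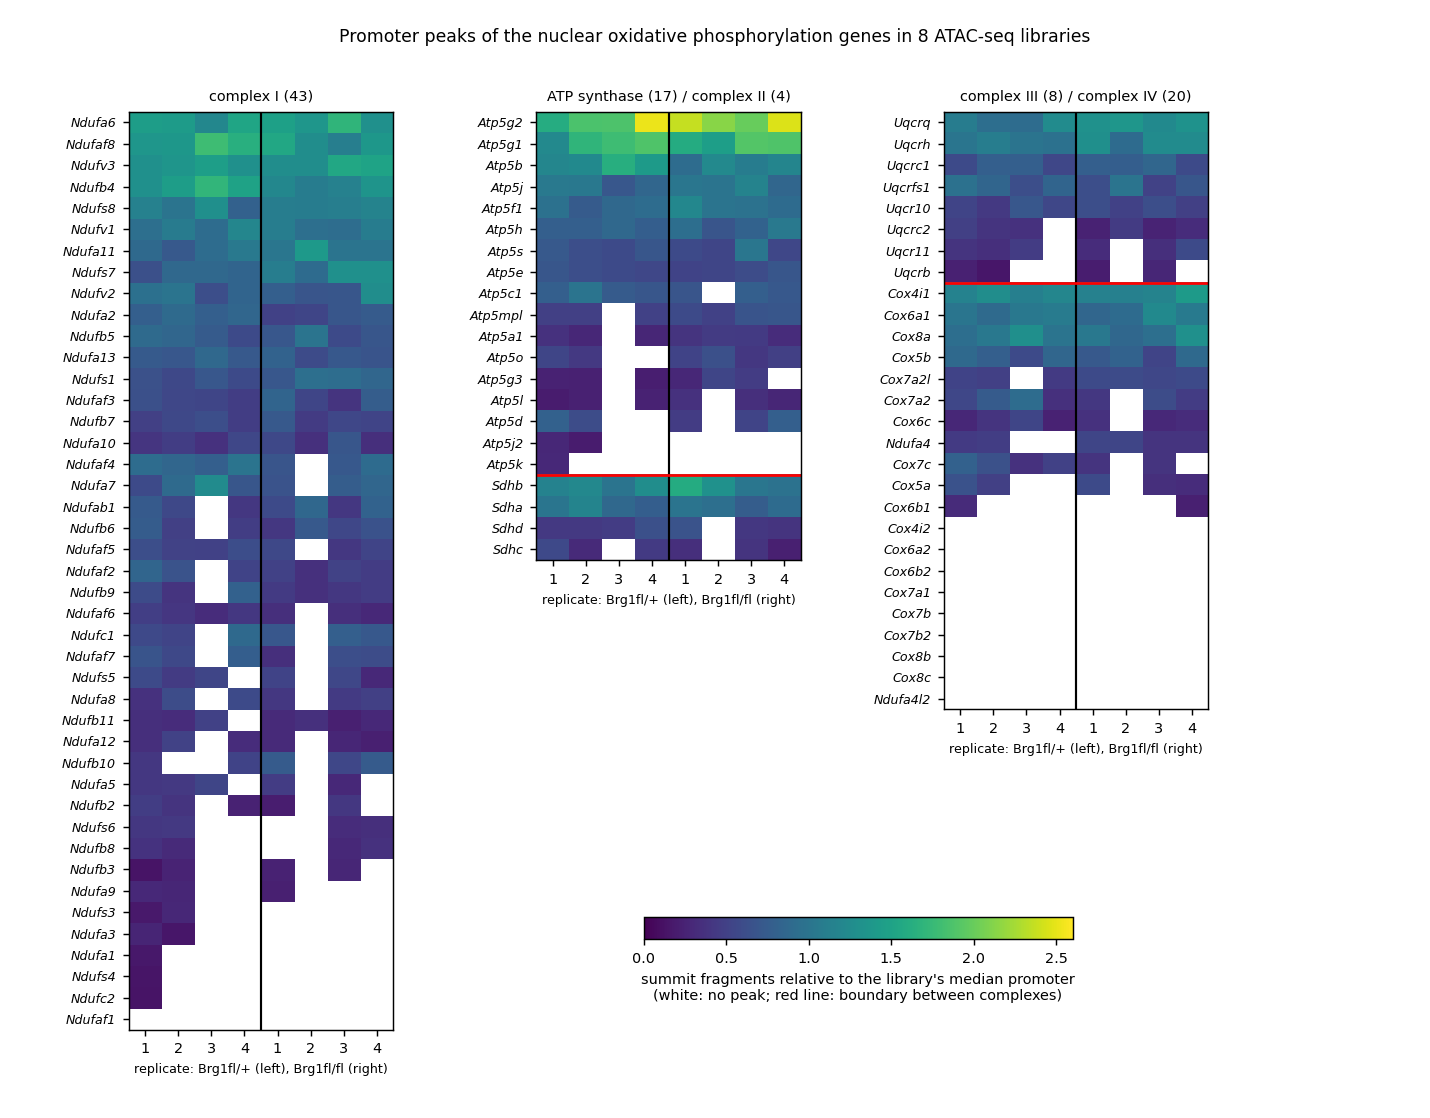
Promoter peak height of 92 of the 93 genes (rows, by complex) in the 8 libraries (columns, Brg1fl/+ 1 to 4 on the left, Brg1fl/fl 1 to 4 on the right), as fragments at the summit divided by the median promoter of the same library. Atp5d had 2 regions, of which the taller is drawn. White cells had no peak, and 10 rows are white throughout, 9 of them in complex IV.

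The ATP synthase was detected as a whole, with all 17 genes, 8 of them in every library. Complex II was detected with all 4 genes, complex III with all 8, and complex I with 43 of 44, including all 7 core subunits in the group and all 29 accessory subunits. Complex IV stood apart, with 11 of 20 genes detected and 4 in every library (Cox4i1, Cox5b, Cox6a1 and Cox8a). In the plot of all genes by library, 9 of the 10 rows without any peak were in complex IV.

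The complex IV genes without a peak were mostly isoforms that are known to be used in other tissues. None of 8 tissue-restricted isoform genes had a promoter peak in any library. These were Cox4i2 and Ndufa4l2, which are known to respond to hypoxia, Cox6a2, Cox7a1 and Cox8b of heart and skeletal muscle, and Cox6b2, Cox7b2 and Cox8c of testis. All but Cox7b2 have a common partner that was detected. For Cox4i1, the common partner of Cox4i2, the summits held 91, 65, 27 and 43 fragments in Brg1fl/+ replicates 1 to 4 and 55, 25, 50 and 61 in Brg1fl/fl. For Cox6a1 they held 80, 46, 25 and 39 fragments and 41, 20, 53 and 46. Both were thus above the lowest summits of any peak in these lists, which held 5 to 8 fragments.

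Cox8a and Cox8b encode the same small subunit in different tissues, and they show the contrast within 1 gene family. The Cox8a summit held 74, 53, 31 and 36 fragments in Brg1fl/+ and 50, 19, 41 and 56 in Brg1fl/fl. Cox8b had no peak in any library. The 150 bases before their RefSeq starts (GRCm38.p6), and those of Cox7b, are shown because they carry a different number of CpG dinucleotides, 10 in Cox8a, 1 in Cox8b and 3 in Cox7b. None of the motifs searched for was in these stretches, so no letters are in capitals. The longer promoters of the motif search described below held ETS letters and CCAAT for Cox8a and CCAAT for Cox7b. For Cox8b they held none of the motifs.
Cox8a, chr19:7217617-7217766, minus strand: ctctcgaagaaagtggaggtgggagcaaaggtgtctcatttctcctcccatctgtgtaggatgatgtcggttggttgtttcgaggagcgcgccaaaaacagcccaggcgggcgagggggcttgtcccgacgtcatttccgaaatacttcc
Cox8b, chr7:140900447-140900596, minus strand: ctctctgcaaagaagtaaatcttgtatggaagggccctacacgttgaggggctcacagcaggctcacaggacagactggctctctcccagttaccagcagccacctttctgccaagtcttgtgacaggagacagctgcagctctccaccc
Cox7b, chrX:106015550-106015699, plus strand: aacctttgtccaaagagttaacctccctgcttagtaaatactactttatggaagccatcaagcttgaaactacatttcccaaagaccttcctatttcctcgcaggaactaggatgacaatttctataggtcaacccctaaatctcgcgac

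Other isoform families were graded. Cox7a2 was detected in 7 libraries, with 44, 38, 22 and 13 fragments in Brg1fl/+ and 20, none, 26 and 20 in Brg1fl/fl, where none means no peak in Brg1fl/fl replicate 2. Cox7a2l, a factor of respiratory supercomplexes, lacked a peak only in Brg1fl/+ replicate 3 and held 13 to 41 fragments elsewhere. Cox6b1, whose partner Cox6b2 is the testis form, was detected in only 2 libraries, with 25 fragments in Brg1fl/+ replicate 1 and 10 in Brg1fl/fl replicate 4. Ndufa4, which is now counted as a complex IV subunit, was detected in 6 libraries. Its region also held the start of Phf14 and its summit was at -244.5 bp from the Ndufa4 start.

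The undetected genes that are not tissue-restricted were Cox7b and Ndufaf1. Cox7b is an X-linked subunit of complex IV, and Ndufaf1 is an assembly factor of complex I. Peak lists give no signal below the calling threshold, so no upper limit can be set for these genes. With a window from 2000 bp upstream to 500 bp downstream, 9 instead of 10 genes had no peak.

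The detected share differed between libraries. In Brg1fl/+ replicates 1 to 4 it was 89.2%, 82.8%, 52.7% and 64.5%, and in Brg1fl/fl it was 77.4%, 50.5%, 77.4% and 73.1%. The lowest shares were those of Brg1fl/+ replicate 3 and Brg1fl/fl replicate 2, which had the lowest and the second lowest depth, 2.76 and 3.39 background fragments per kb. The other libraries did not follow the order of depth. Brg1fl/+ replicate 2, with 4.14 fragments per kb, had a higher share than Brg1fl/fl replicates 1, 3 and 4, with 6.89, 6.27 and 5.95. The reason was not tested. The means were 72.3% ± 16.8 (SD, n = 4) in Brg1fl/+ and 69.6% ± 12.9 (SD, n = 4) in Brg1fl/fl. The difference of -2.69 percentage points was smaller than either SD. It was -5.11 points with a −log10 q of at least 5, -9.41 with at least 10, and 1.34 when the same number of peaks was taken from each list. With each library left out it ranged from -9.23 (without Brg1fl/+ replicate 3) to 3.67 points (without Brg1fl/fl replicate 2), and it was also positive without Brg1fl/+ replicate 1 (2.96) or 2 (0.806). For all protein-coding genes the means were 37.3% ± 8.88 and 33.5% ± 4.39 (SD, n = 4 each).

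**Figure D2:**
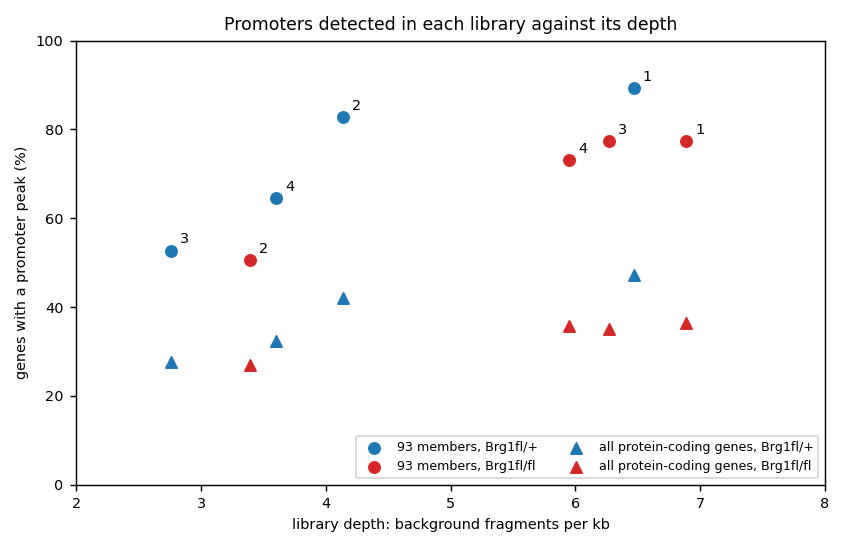
Percent of genes with a promoter peak (vertical axis) against library depth in background fragments per kb (horizontal axis), for the 93 genes (circles, numbered by replicate) and all protein-coding genes (triangles). In both genotypes the 93 genes lie above all protein-coding genes in every library, and the shallow lists Brg1fl/+ 3 and Brg1fl/fl 2 are lowest for the 93 genes.

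Between these extremes, 48 genes were detected in 1 to 7 libraries. Of these, 46 were missing from Brg1fl/+ replicate 3, Brg1fl/fl replicate 2 or both, and 21 were present in all other 6 libraries. All 83 detected genes had a peak in Brg1fl/+ replicate 1, the longest list. Their summits in that library were graded by how widely they were found. Genes found in all 8 libraries had a median of 76 fragments (32 to 127, 35 genes), genes in 3 to 7 libraries 39 (11 to 73, 39 genes), and genes in 1 or 2 libraries 21 (11 to 26, 9 genes).

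Some genes had a peak in Brg1fl/+ libraries only. Atp5k, Ndufa1, Ndufc2 and Ndufs4 were detected in Brg1fl/+ replicate 1 alone, with 24, 13, 11 and 12 fragments. Atp5j2, Ndufa3 and Ndufs3 were detected in Brg1fl/+ replicates 1 and 2. Ndufs3, a core subunit of complex I, had 14 and 15 fragments there, in a region shared with Kbtbd4. All these genes lacked a peak in Brg1fl/+ replicates 3 and 4 as well. They were named after their values were seen. No gene was detected in Brg1fl/fl libraries only, and none was detected in at least 3 more libraries of 1 genotype than of the other. Of the 83 detected genes, 24.1% were found in more Brg1fl/+ than Brg1fl/fl libraries, and 15.7% in more Brg1fl/fl libraries. Among all protein-coding genes with a peak these shares were 32.4% and 11.5%. Whether depth accounts for these patterns was not tested. None of the 84 combined regions of the genes was detected in all Brg1fl/+ and no Brg1fl/fl libraries, and none in all Brg1fl/fl and no Brg1fl/+ libraries. Among all 9774 promoter regions 0.133% showed the first pattern and 0.0102% the second.

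Peak height was compared next, as fragments at the summit divided by the median of the 4126 promoter regions with a peak in every library. The 84 regions of the genes included 35 of these. Their median height was 0.946 times the median promoter (0.438 to 2.07), compared with 0.993 for all 4126, and it ranged from 0.861 to 1.00 between libraries. The quartiles were 0.747 and 1.17, compared with 0.717 and 1.36. In bulk cells, openness in fewer cells and less openness per cell cannot be told apart.

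The tallest promoters were those of the ATP synthase c ring. The c subunit forms the rotating ring through which protons pass, and its mature protein is made by 3 genes, Atp5g1, Atp5g2 and Atp5g3. The Atp5g2 summit held 127, 95, 45 and 91 fragments in Brg1fl/+ and 114, 47, 86 and 106 in Brg1fl/fl. It was the tallest of all members in the median over libraries, at 2.07 times the median promoter. The Atp5g1 summit held 97, 87, 43 and 68 fragments and 77, 32, 82 and 81, with a median relative height of 1.75. The Atp5g3 summit was low, with 20, 12 and 8 fragments in Brg1fl/+ replicates 1, 2 and 4 and 14, 12 and 20 in Brg1fl/fl replicates 1 to 3, and a median relative height of 0.27. Every library thus ordered them in the same way, with Atp5g3 lowest or without a peak.

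The promoters of the tallest and the lowest c ring gene are shown for this contrast, as the 150 bases before the RefSeq start (GRCm38.p6). Capitals mark motif matches within these 150 bases. They are in Atp5g2 an NRF1 match read on both strands and an E2F match, and in Atp5g3 a CCAAT box and an ERR match. The longer promoters of the motif search described below, pooled over the starts of a gene, held further matches. There Atp5g3 also had NRF1 letters and CACGTG, and Atp5g2 also had GGGCGG. NRF1 letters were thus found for both genes at some start. Whether the further matches lie near the starts shown was not checked.
Atp5g2, chr15:102671048-102671197, minus strand: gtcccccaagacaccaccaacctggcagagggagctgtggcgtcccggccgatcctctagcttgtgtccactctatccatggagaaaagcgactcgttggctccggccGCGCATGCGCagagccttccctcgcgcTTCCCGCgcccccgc
Atp5g3, chr2:73911327-73911476, minus strand: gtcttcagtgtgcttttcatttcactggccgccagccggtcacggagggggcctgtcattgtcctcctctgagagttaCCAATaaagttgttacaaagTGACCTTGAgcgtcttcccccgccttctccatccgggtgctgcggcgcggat

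The other 3 of the 5 tallest promoters were in complex I. Ndufa6, an accessory subunit, had a median relative height of 1.44, Ndufaf8, an assembly factor, 1.37, and Ndufv3, an accessory subunit next to the NADH site, 1.33. Ndufaf8 and Ndufv3 share their regions with the divergent genes Tepsin and Wdr4. Atp5a1 and Atp5b encode the alternating subunits of the catalytic head, but their promoters differed in height. Atp5b was detected in all libraries at 1.21 times the median promoter, and Atp5a1 in 7 libraries at 0.37 times.

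Heights in complex II were also unequal. Sdhb, the iron-sulfur subunit, had a median relative height of 1.18 and Sdha, the flavoprotein subunit, 0.93, both with a peak in every library. Sdhd and Sdhc, the membrane anchors, were detected in 7 and 6 libraries at 0.43 and 0.37. Sdhd shares its region with Timm8b, a chaperone gene of mitochondrial import.

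Next, the heights of the 35 regions were compared between genotypes with limma on log2 values fitted over all 4126 promoter regions. Of the 35 regions, 1 passed an adjusted p of 0.05, Ndufs7, which was higher in Brg1fl/fl. Among all promoter regions 9.57% passed. Higher in Brg1fl/fl were 1 of 35 regions, compared with 6.64% of all promoter regions, and lower were 0 of 35, compared with 2.93%. At an unadjusted p under 0.05 limma gave 3 higher and 3 lower regions (17.1%), compared with 25.2% of all promoter regions. The median log2 difference of the 35 regions was 0.05, as was that of all promoter regions, and 20 of the 35 (57.1%) were higher in Brg1fl/fl, compared with 57.5% of all. All these differences are relative to the median promoter of each library. When heights were scaled to the background of each library instead, all promoter regions shifted by -0.82 on the log2 scale, the 35 regions had a median of -0.83, and 33 of them, like 3877 of the 4126 promoter regions, were called lower in Brg1fl/fl.

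**Figure D3:**
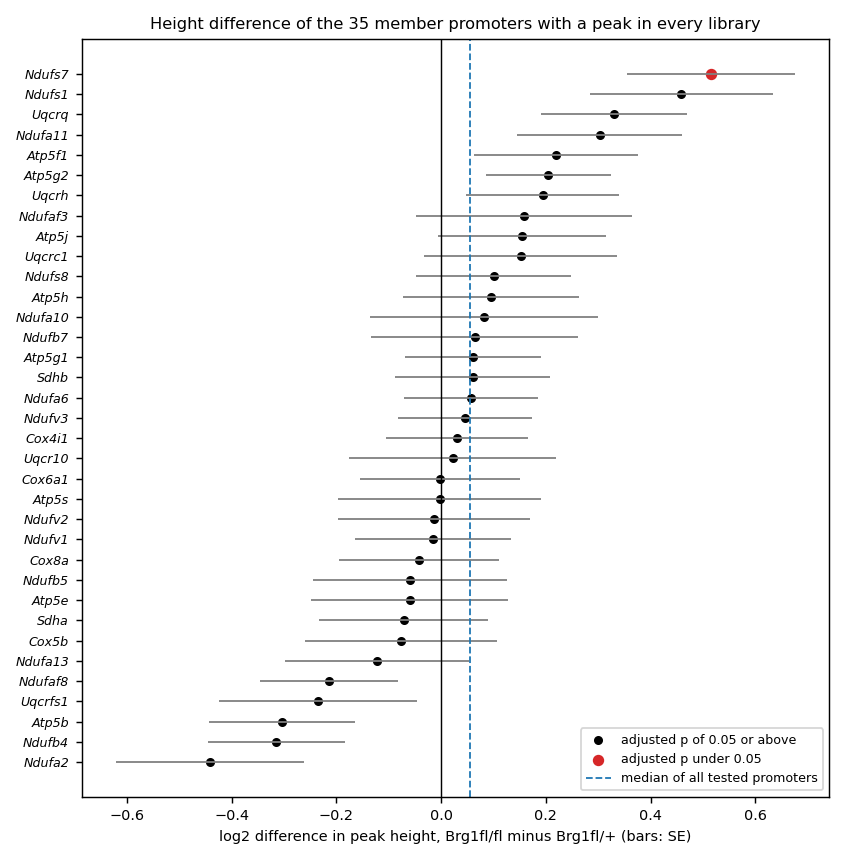
Log2 difference in promoter peak height between Brg1fl/fl and Brg1fl/+ (horizontal axis, bars are standard errors, 4 libraries a genotype) for the 35 regions with a peak in every library. Ndufs7 is the only point past an adjusted p of 0.05, and the values run from -0.44 for Ndufa2 to 0.52 for Ndufs7 around the median of all promoters (dashed).

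Ndufs7 encodes a core subunit of complex I that holds the last iron-sulfur cluster before ubiquinone. Its region, chr10:80248952-80249537 in GRCm38, covers the start of the gene. The summit held 50, 45, 21 and 30 fragments in Brg1fl/+ and 53, 20, 56 and 56 in Brg1fl/fl. Relative to the median promoter, the height was 0.81 ± 0.12 in Brg1fl/+ and 1.15 ± 0.19 in Brg1fl/fl (SD, n = 4 each), and the genotypes did not overlap. The log2 difference was 0.52 with a standard error of 0.16 (limma, adjusted p = 0.0323). This call was lost with the deposited fold over background as the measure (log2 difference 0.11, adjusted p = 0.626), without a variance trend, and when any of 5 of the 8 libraries was left out (Brg1fl/+ 1 and 4, Brg1fl/fl 1, 3 and 4, with adjusted p from 0.06 to 0.135). Scaled to the background, the log2 difference was -0.36 (adjusted p = 0.0901). Over all alternatives the adjusted p ranged from 0.0144 to 0.626. The 150 bases before its RefSeq start are shown because this is the region called. They hold 15 CpG and none of the motifs searched for. The longer promoters of the motif search described below held YY1 letters for Ndufs7.
Ndufs7, chr10:80249299-80249448, plus strand: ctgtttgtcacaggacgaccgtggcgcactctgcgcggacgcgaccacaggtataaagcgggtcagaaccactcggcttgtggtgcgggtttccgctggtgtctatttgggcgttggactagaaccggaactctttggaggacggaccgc

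Groups that do not overlap were rare. The relative heights of the genotypes were separate at 2 of 35 regions, Ndufa2 and Ndufs7, compared with 14.2% of all promoter regions. Ndufa2, an accessory subunit of complex I whose region is shared with the divergent splicing gene Ik, held 62, 46, 19 and 31 fragments in Brg1fl/+ and 24, 12, 30 and 32 in Brg1fl/fl. Its relative height was 0.83 ± 0.06 and 0.62 ± 0.12 (SD, n = 4 each), a log2 difference of -0.44 with a standard error of 0.18 that did not pass the test (limma, adjusted p = 0.108).

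**Figure D4:**
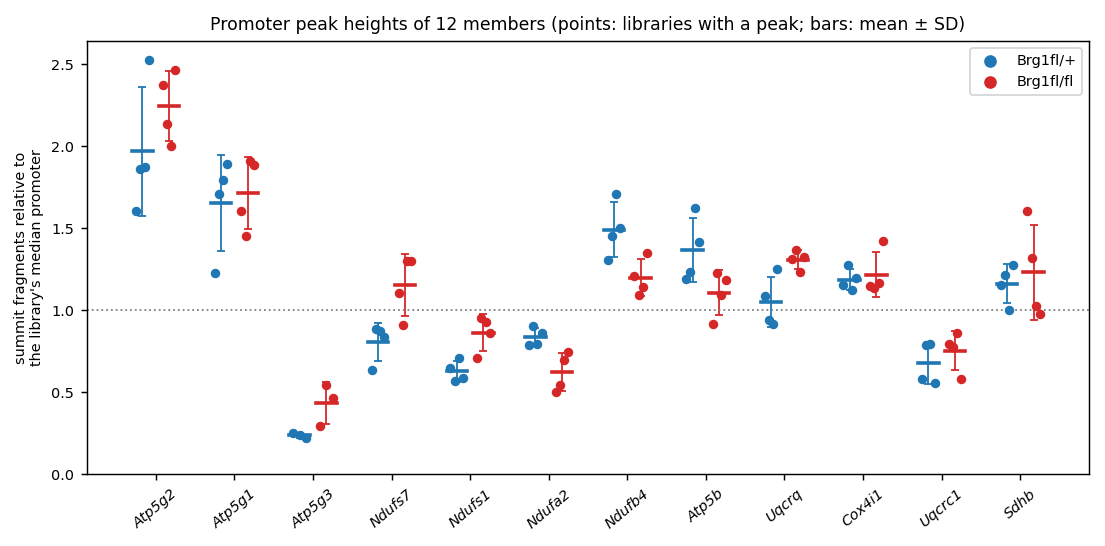
Fragments at the summit relative to the library's median promoter (vertical axis) for 12 genes, with 1 point per library that had a peak and the mean ± SD for Brg1fl/+ (blue) and Brg1fl/fl (red). Atp5g2 and Atp5g1 are tallest and Atp5g3 lowest, and of the 12 genes Ndufs7 and Ndufa2 have a peak in every library and no overlap between genotypes.

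The next largest differences did not pass the test either. On the higher side, Ndufs1, the largest core subunit of complex I, had a log2 difference of 0.46 with a standard error of 0.18 (limma, adjusted p = 0.0857), and Uqcrq, a small subunit of complex III, 0.33 with 0.14 (limma, adjusted p = 0.125). On the lower side, Ndufb4, an accessory subunit of complex I, had -0.31 with 0.13 (limma, adjusted p = 0.118), and Atp5b, the catalytic beta subunit, -0.30 with 0.14 (limma, adjusted p = 0.16). The Ndufs1 region is shared with Eef1b2 and the Uqcrq region with Gdf9, so their fragments cannot be assigned to 1 gene.

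Other central subunits did not pass the test. The log2 difference was -0.02 for Ndufv1, the NADH-binding subunit of complex I, 0.15 for Uqcrc1 and -0.24 for Uqcrfs1, the Rieske protein of complex III, and 0.03 for Cox4i1. In complex II it was -0.07 for Sdha and 0.06 for Sdhb. Their standard errors were between 0.14 and 0.19, so differences of that size or smaller could not be told from 0. Larger ones could fail too, as at Ndufs1 with 0.46 and a standard error of 0.18 (limma, adjusted p = 0.0857). Cox5a and Atp5a1 were not tested because they lacked a peak in at least 1 library. Cox5a, a subunit of complex IV, held 52 and 25 fragments in Brg1fl/+ replicates 1 and 2 and 28, 15 and 14 in Brg1fl/fl replicates 1, 3 and 4.

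When regions with a peak in at least 2 libraries of each genotype were included, 73 regions of the genes could be tested among 6834, and 2 passed. The second was Atp5g3, with a log2 difference of 0.83 and a standard error of 0.26 (limma, adjusted p = 0.0284). It was 0.24 ± 0.02 times the median promoter in the 3 Brg1fl/+ libraries with a peak and 0.43 ± 0.13 in the 3 Brg1fl/fl libraries (SD). Brg1fl/+ replicate 3 and Brg1fl/fl replicate 4 had no peak there and were left out of its fit, so the heights are those above the calling threshold only.

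Genes of the pathway outside the naming rule were looked at in the same way. Of 39 listed assembly factors and electron carriers 35 were detected, and 3 of the 15 that could be tested passed, compared with 9.57% of all promoter regions. Whether this share differed from that of the 35 regions was not tested. Cox20, a chaperone of complex IV, rose by a log2 difference of 0.48 (limma, adjusted p = 0.0138), and Sdhaf2, which inserts FAD into Sdha, rose by 0.55 (limma, adjusted p = 0.00881). Tmem126b, an assembly factor of complex I, fell with a log2 difference of -0.38 (limma, adjusted p = 0.0326). Of 16 regulators 15 were detected, 10 were tested and 1 passed. This was Yy1, a zinc finger factor, which rose by 0.48 (limma, adjusted p = 0.00648). The coactivator gene Ppargc1a had no peak. Among ribosomal protein genes 4 of 55 rose, compared with 6.64% of all promoter regions, and among proteasome genes 1 of 17 fell, compared with 2.93%.

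A second feature of these promoters did not come from the genotypes. Many regions were shared with the start of another gene. Of the 83 detected genes, 35 had a region that also covered the window of another protein-coding gene, for 34 of them on the opposite strand. Of the regions, 41.7% were shared, compared with 12.8% of all promoter regions, and 45.7% and 17.9% among regions with a peak in all libraries. In the annotation alone, 36.6% of the 93 genes had a start of another protein-coding gene on the opposite strand within 1000 bp upstream, compared with 11.1% of all protein-coding genes and 20.8% of those with a peak.

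The neighbours had various roles, and the following were picked as examples after the list was seen. Ndufb5 and Ndufs6 were paired with the mitochondrial ribosomal protein genes Mrpl47 and Mrpl36, Ndufa7 with Rps28, Ndufs1 with the elongation factor gene Eef1b2, and Sdhd with Timm8b. Atp5j, a stalk subunit of the ATP synthase, was paired with Gabpa, the DNA-binding subunit of GABP. Its region, chr16:84834533-84835658, held 83, 53, 17 and 31 fragments in Brg1fl/+ and 49, 22, 50 and 37 in Brg1fl/fl. The log2 difference was 0.15 with a standard error of 0.16 (limma, adjusted p = 0.588). The 150 bases before the Atp5j start nearest to the centre of this region are shown because they hold, in capitals, a YY1 and an ETS match, the motif class that GABP itself binds.
Atp5j, chr16:84834977-84835126, minus strand: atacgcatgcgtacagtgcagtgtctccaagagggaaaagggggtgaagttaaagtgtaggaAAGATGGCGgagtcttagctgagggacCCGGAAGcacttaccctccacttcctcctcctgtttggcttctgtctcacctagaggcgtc

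The summits lay close to the starts. Of the 35 regions, 91.4% had their summit within 100 bp of a protein-coding start, compared with 70.1% of the 4126 promoter regions, and the median distance was 37.5 bp compared with 59.5 bp. The regions were slightly narrower than promoters in general, with a median combined width of 647 bp compared with 709 bp.

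Finally, the promoter sequences were searched for the motifs of factors known for this pathway. RefSeq promoters of 250 bases before to 50 after a start (GRCm38.p6) were matched for 76 of the 93 genes (81.7%). Where a gene had several such promoters they were pooled, and the highest value over them was used. A motif thus counted if any promoter of the gene held it. The G and C content and the CpG values are likewise maxima per gene. Genes with more starts had more chances of a match, which was not adjusted for. Letters were searched on both strands, with CGCANGCGC for NRF1, CCGGAAG for ETS factors such as GABP, AAGATGGCG for YY1, GGGCGG for SP and KLF factors, CCAAT for NF-Y, CACGTG for the E-box, TGACGTCA for the CRE, TCAAGGTCA for the estrogen-related receptors and TTCCCGC for E2F. The E2F and SP letters can share bases, as can those of neighbouring matches of 1 motif. A match describes the letters only.

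NRF1 letters were found for 25 of the 70 detected genes with a promoter sequence (35.7%), compared with 17.9% of all protein-coding genes with a peak. YY1 letters were in 8 of 70 (11.4%), compared with 4.2%, and ETS letters in 17 of 70 (24.3%), compared with 22.7%. GGGCGG went the other way, with 32 of 70 (45.7%) compared with 72.6%. CCAAT was in 41.4% compared with 44.3%, the E-box in 8.6% compared with 12.4%, the CRE in 5.7% compared with 4.1% and E2F letters in 11.4% compared with 10.5%. ERR letters were in 2 of 70 (2.86%), compared with 0.309%. The highest G and C content per gene was lower, with a median of 59.2% compared with 62.7%. The highest ratio of observed to expected CpG per gene had a median of 0.838 compared with 0.821.

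**Figure D5:**
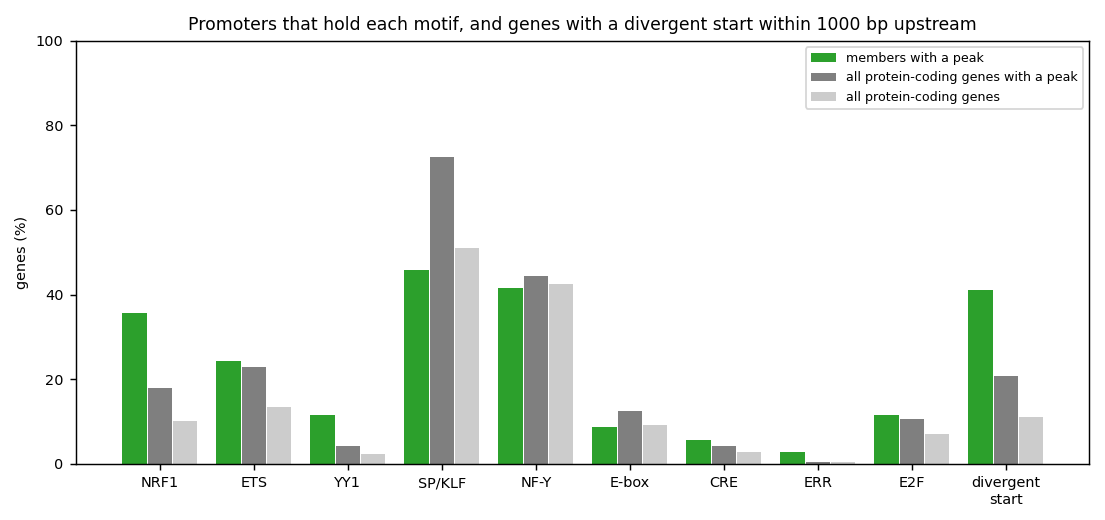
Percent of genes (vertical axis) with the letters of each motif in any of their RefSeq promoters, and percent with a divergent protein-coding start within 1000 bp upstream. Shown are the 93-gene group with a peak (green), all protein-coding genes with a peak (dark grey) and all protein-coding genes (light grey). NRF1, YY1 and divergent starts are more frequent in the group than in both backgrounds, and SP/KLF letters less frequent (45.7% compared with 72.6% of genes with a peak).

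By detection, NRF1 letters were found for 9 of 31 genes with a peak in all 8 libraries (29.0%) and for 16 of 39 in 1 to 7 (41.0%). For CCAAT these shares were 58.1% and 28.2%, and for ETS letters 32.3% and 17.9%. Among all protein-coding genes found in all 8 libraries, NRF1 letters were in 25.2%, CCAAT in 46.7% and ETS letters in 25.1%. The NRF1 share of the genes found in all 8 libraries was thus closer to its background than that of all detected genes. Of the 10 genes without a peak 6 had a promoter sequence. None of the 6 held NRF1 letters, and their median CpG count was 8.5, with 2 to 17, compared with a median of 20 for the detected genes, with 8 to 43. These are differences between small groups of genes and were not tested.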

How the data were processed

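ATAC-seq was measured in 8 libraries, and the labels gave each its genotype and number. The authors mapped the reads against mm10 using Bowtie2 and called peaks in each library using MACS2. Versions, the treatment of duplicates and a transposase shift are not given in the sources used here. The deposited lists hold the fold (a ratio) of each summit over the local background, with its deposited −log10 p-value and −log10 q-value. The deposited score column was not used. 8 RNA-seq libraries were not analysed here, and the single values of 1 member and of some other genes are not reported here.

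The fragments at a summit were recovered by solving fold and −log10 p together, to within 0.002, for 99.7% to 99.8% of each list. Overlapping peaks of the 8 lists were joined into 16566 regions, and 9774 overlapped a promoter window by at least 1 bp. Fragments divided by the library's median over the 4126 promoter regions with a peak in every library were compared on the log2 scale with limma 3.58.1 (R 4.3.3, variance trend, no block, 4 against 4, no pseudocount), with Benjamini-Hochberg adjustment over all 4126 regions and a threshold of 0.05. Tables were made with Python 3.11.15. On simulated data for this comparison with 4126 regions, 62% of the regions changed by 1.5 fold and 97% of those changed by 2 fold were recovered, and 0.229% of the unchanged regions were called. The simulated libraries were independent and held counting noise only. These rates may therefore be too favourable for the real libraries. Fragment numbers are deduced, cover counting error only, and are limited by depth (2.76 to 6.89 background fragments per kb).

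The members and gene lists were chosen with earlier results of these data known. Genes were named when they passed the test, had the 3 highest or 3 lowest differences, were detected in no library or in at least 3 more libraries of 1 genotype than of the other, belonged to an isoform family, were among the 5 tallest, or encode complex II or a central subunit. Alternatives were other scalings, the deposited fold, regions missing in some libraries, distal regions, a replicate block, joined libraries, no trend, stricter or equal numbers of peaks, other windows, coding transcripts only, and leaving out each library.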

Additional observations from a re-analysis of the deposited data

Results flagged for a closer look

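In 46 groups of 4 libraries examined for a library far from the others (Dixon's test at 95%), 2 were found, which is about what chance gives at 1 in 20 groups. The share of the 93 genes with a promoter peak was 50.5% in Brg1fl/fl replicate 2, compared with 73.1% to 77.4% in the other Brg1fl/fl libraries. This library also had the lowest depth of its genotype, 3.39 background fragments per kb. The relative height of the Cox4i1 promoter was 1.42 in Brg1fl/fl replicate 4, compared with 1.14 to 1.16 in the others. Its causes were not tested.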

How the results depend on the processing

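Counts of regions called are given first for the oxidative phosphorylation genes and then for all promoter regions (1 of 35 and 395 of 4126 as reported). They were 33 and 3877 with background scaling, 0 and 166 with the deposited fold, 2 and 594 with regions in at least 2 libraries of each genotype, 0 and 236 without a trend, and 0 to 1 and 218 to 363 with each library left out. The total over all promoter regions was 255 with quantile normalization, with Ndufs7 still called. It was 261 with libraries 1 and 2 and libraries 3 and 4 joined, where Ndufs7 had an adjusted p of 0.0499 (limma). The median difference of the genes was -0.829 with background scaling, -0.0364 with the deposited fold and -0.00973 with regions in at least 2 libraries. With −log10 q of at least 10, 23 genes were detected in all libraries and 16 in none. The causes were not tested.

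Under background scaling the direction reversed for Atp5g1 (-0.81), Atp5g2 (-0.67), Cox4i1 (-0.84), Ndufa6 (-0.82), Ndufs1 (-0.42), Ndufs7 (-0.36), Ndufv3 (-0.83), Sdhb (-0.81), Uqcrc1 (-0.72) and Uqcrq (-0.55), where all promoters had a median of -0.82. Other sign changes were of values that did not pass the test in either setting. With quantile normalization these were Atp5g1 (-0.022), Cox6a1 (0.00437), Ndufa6 (-0.00663) and Ndufv3 (-0.00332), and with the deposited fold Cox4i1 (-0.18) and Ndufv3 (-0.051). With each library left out, the difference ranged from -0.0763 to 0.144 for Atp5g1, -0.0456 to 0.0691 for Cox4i1, -0.1001 to 0.0762 for Cox6a1, -0.156 to 0.0635 for Cox8a, -0.0183 to 0.109 for Ndufa6, -0.0612 to 0.0439 for Ndufv1, -0.00702 to 0.0983 for Ndufv3, -0.179 to 0.0316 for Sdha and -0.0773 to 0.161 for Sdhb. In all, 35 values of the named genes changed sign, whether or not they also crossed the threshold. Of the values that kept their sign, 253 stayed on the same side of the threshold, 9 passed it newly and 7 no longer passed it.

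With the replicate number as a block, 1 of the 35 regions and 384 of all promoter regions were called. Libraries of the same number did not deviate together (correlations from -0.038 to -0.008), so the numbers were not taken to pair the libraries. Depth was lowest in Brg1fl/+ replicate 3 and second lowest in Brg1fl/fl replicate 2. Whether it limited detection there was not tested. A gene without a peak cannot be given an upper limit from peak lists.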
